A study of Mus musculus with 15 samples.

Results

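The transcription factors described here act on the secretory lineages of the gut epithelium, above all on goblet cells, which make mucus. They are the 10 genes Atoh1, Gfi1, Spdef, Sox4, Creb3l1, Creb3l4, Foxa1, Foxa2, Foxa3 and Klf4. Their array probes were found through the transcript accession that the array files give for each probe, looked up in a RefSeq gene table. The members are 10 of the 20144 genes that could be named on the array, and 12 of its 39429 probes, 1 for each gene except Sox4 and Foxa2, which had 2 each. All 12 passed the filter on dim probes and were among the 28488 probes tested.

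Gene expression was measured in crypts, the epithelial pits of the small intestine that hold stem cells, their dividing progeny and Paneth cells, from mice aged 6 to 8 weeks. The first group had received blocking antibodies to the receptors Notch1 and Notch2, given in the labels as 1 mg/mL, together with an anti-Lrp6 antibody at 30 mg/kg (N1N2 plus Lrp6), Lrp6 being part of the receptor for Wnt ligands. The second had received the Notch1 and Notch2 antibodies at 1 mg/mL alone (N1N2), and the third a control IgG antibody (control). Crypts were taken 24 h after treatment in all 3 groups, and each group had 5 biological replicates with 1 array each. The strain, the sex, the amount of Notch antibody per animal, and whether a replicate was 1 animal or a pool are not stated in the labels. Red (Cy5) stood for crypt RNA on each array and green (Cy3) for a universal mouse reference RNA. Every value below is therefore a log2 ratio of crypt over reference, each SD is over the 5 arrays of a group, and each SE is that of the fit. A probe's ratio cannot be set against that of another probe, since the reference holds a different amount of each transcript. In bulk crypt RNA, fewer cells of a type and less RNA per cell cannot be told apart.

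In a crypt, Notch signalling passes between neighbouring cells. A cell that receives the signal makes Hes1, a repressor that keeps Atoh1 off, and goes on as an absorptive progenitor. A cell that escapes the signal switches on Atoh1, puts Notch ligands such as Dll1 on its surface, and enters a secretory lineage, as a goblet, Paneth or enteroendocrine cell. Atoh1 stands at the head of this branch. Gfi1 and Spdef act after it, Gfi1 in goblet and Paneth cells at the expense of enteroendocrine fate, Spdef in the maturation of goblet and Paneth cells. The remaining genes belong to the Sox, Creb3-like, Foxa and Klf families, some of whose members adapt the cell to making and exporting large amounts of protein.

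Control spots aside, between 57.2% and 79.8% of the spots on an array were well above background in red, and none was saturated. N1N2 plus Lrp6 arrays averaged 64.8% ± 6.01, N1N2 arrays 73.9% ± 3.05 and control arrays 75.8% ± 4.19 (SD, n = 5 each). All 10 epithelial markers looked at, and all 10 Paneth cell markers on the array, were well above background on all 15 arrays. Immune markers were also detected on every array (13 of 13). The mean log2 ratio of 15 stromal and muscle markers ran from -3.56 to -2.93 on the N1N2 plus Lrp6 arrays, from -2.86 to -2.57 on the N1N2 arrays and from -2.71 to -2.08 on the control arrays. Of the 16 such markers on the array none was at background throughout, and 9 were well above it on all 15 arrays. On the N1N2 plus Lrp6 arrays, Pdgfra was well above background on 0 of 5, and Cdh5 and Foxl1 on 1 of 5 each. The arrays lay on 6 slides. Slide 2 held 2 N1N2 and 2 control arrays, and every other slide held arrays of 1 group, so slide and group cannot be told apart for the N1N2 plus Lrp6 arrays. With 5 arrays a group, precision is limited by their number.

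Blocking Notch1 and Notch2 was followed within 24 h by higher expression of nearly the whole set. Of the 12 probes, 11 rose in the N1N2 group against the control group at an adjusted p under 0.05 (limma, Benjamini-Hochberg adjustment over all 28488 probes), which covers 9 of the 10 genes. None fell, also at an unadjusted p under 0.05. Over all probes tested, 6.2% were called higher and 5.23% lower. The median log2 change of the 12 probes was 1.44, with a range of 0.26 to 1.95, against a median of -0.0066 over all probes tested. The changes of Atoh1, Spdef and Gfi1 were the largest as processed here, an order that did not hold with scaling between arrays, the scanner software's ratios or slide as a fixed block, and Klf4, which had the smallest, did not pass the test. For 9 probes, Klf4 among them, every N1N2 array lay above every control array, where 5.83% of all probes lay wholly higher in this way and 6.33% wholly lower.

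Atoh1, the basic helix-loop-helix factor without which the gut makes no secretory cells, had log2 ratios of 5.35, 6.15, 7.02, 6.02 and 6.59 on the 5 N1N2 arrays, against 4.02, 4.32, 4.14, 4.56 and 4.33 on the control arrays. Every N1N2 value lay above every control value, and the N1N2 arrays were the more spread, over 1.67 log2 units against 0.54. The change was 1.95 ± 0.25 (SE, adjusted p = 0.00016), or 3.87-fold. Its size ranged from 1.31, with slide as a fixed block (adjusted p = 0.15), to 2.77 over the alternatives, and it was 1.37 with scaling between arrays. The raw red intensity behind these ratios ran from 3453 to 12223 on the N1N2 arrays and from 2051 to 2665 on the control arrays. In green the Atoh1 probe was not well above background on any of the 15 arrays, with raw intensities between 36.5 and 52. The ratio is therefore set by the red channel and by the added offset, and its level above the reference is compressed.

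Gfi1, a zinc-finger repressor that Atoh1 activates, had 0.91, 1.70, 1.67, 1.79 and 1.65 on the N1N2 arrays, against -0.32, -0.10, -0.54, -0.16 and -0.09 on the control arrays. The groups were apart, and 4 of the 5 N1N2 values lay within a narrow band while replicate 1 was well below them. The change was 1.79 ± 0.19 (SE, adjusted p = 2.6e-05). Spdef, the ETS-family factor of goblet cell maturation, had 7.08, 7.00, 7.65, 7.25 and 7.29 on the N1N2 arrays, against 5.29, 5.31, 5.23, 5.46 and 5.48 on the control arrays. All control values lay within 0.25 log2 units of each other and far under the lowest N1N2 value. Spdef rose by 1.90 ± 0.13 (SE, adjusted p = 7.5e-07), and by p-value it was the 7th of the 28488 probes.

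Creb3l1 and Creb3l4 encode transcription factors held in the membrane of the endoplasmic reticulum until proteolysis releases them, and they belong to the family that raises secretory capacity. Creb3l1 had 1.16, 1.55, 1.70, 1.68 and 1.59 on the N1N2 arrays, against -0.27, -0.09, -0.06, 0.08 and -0.12 on the control arrays. Creb3l4 had 4.73, 5.07, 5.37, 5.06 and 5.20 on the N1N2 arrays, against 3.29, 3.57, 3.28, 3.49 and 3.54 on the control arrays. Neither gene had overlapping groups, and in both N1N2 replicate 1 was the lowest of its group. The changes were 1.63 ± 0.14 (SE, adjusted p = 4.1e-06) for Creb3l1 and 1.65 ± 0.14 (SE, adjusted p = 3.1e-06) for Creb3l4, about 3.09-fold and 3.14-fold.

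Sox4, an HMG-box factor known from tuft and enteroendocrine differentiation, was read by 2 probes. Probe A_55_P2121613 had 0.01, 0.01, 0.34, 0.28 and 0.53 on the N1N2 arrays, against -1.19, -1.32, -1.21, -1.46 and -1.28 on the control arrays, with no overlap. Probe A_55_P2131899, which was dimmer, had -0.44, 0.09, 0.59, 0.05 and 0.31 on the N1N2 arrays, against -0.92, -0.74, -0.76, -0.59 and -0.43 on the control arrays, where the lowest N1N2 value fell just under the highest control value. The first probe rose by 1.53 ± 0.17 (SE, adjusted p = 4.4e-05) and the second by 0.81 ± 0.19 (SE, adjusted p = 0.015). The 95% intervals of the 2 changes ran from 1.17 to 1.89 and from 0.40 to 1.22. Both probes were read on the same arrays, so these intervals do not compare them. The first probe minus the second averaged -0.60 (SD 0.26) on the control arrays and 0.11 (SD 0.28) on the N1N2 arrays. The estimated rise was smaller for the second probe, and whether the sizes differ was not tested. The red intensity of the second probe was at most 369 on the N1N2 arrays, against 2016 for the first.

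The Foxa genes encode forkhead factors that open chromatin in endodermal tissues, and Foxa1 and Foxa2 are known to act on goblet and enteroendocrine cells of the gut. Foxa1 had 2.43, 3.01, 3.41, 3.00 and 3.14 on the N1N2 arrays, against 1.88, 2.14, 2.07, 2.49 and 2.28 on the control arrays. N1N2 replicate 1 lay within the control range and the other 4 lay above it, except that replicate 1 aside no array overlapped. The change was 0.83 ± 0.21 (SE, adjusted p = 0.019), and it did not pass with scaling between arrays or median centring (adjusted p = 0.24 and 0.16). Foxa2 probe A_55_P2134236 had 2.61, 3.50, 3.61, 3.43 and 3.95 on the N1N2 arrays, against 1.97, 2.31, 1.75, 2.15 and 2.18 on the control arrays. The groups did not overlap for that probe, which rose by 1.35 ± 0.24 (SE, adjusted p = 0.002). The other Foxa2 probe, A_55_P2067533, rose by 1.11 ± 0.26 (SE, adjusted p = 0.014), with N1N2 replicate 1, at 1.49, just under the highest control value of 1.50. Foxa3 had 2.13, 2.22, 2.98, 2.12 and 2.88 on the N1N2 arrays, against 1.37, 1.23, 1.23, 1.24 and 1.29 on the control arrays. The 5 N1N2 values formed a lower cluster of 3 and a higher pair, all above the control values, and the change was 1.19 ± 0.16 (SE, adjusted p = 0.00031).

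Klf4, a zinc-finger factor of terminal epithelial differentiation known for its part in colonic goblet cells, had 2.84, 2.65, 2.71, 2.60 and 2.61 on the N1N2 arrays, against 2.58, 2.34, 2.42, 2.47 and 2.30 on the control arrays. The groups touched without overlapping. The difference of 0.26 ± 0.10 (SE, 95% interval 0.05 to 0.47) did not pass the test (adjusted p = 0.11), and it was -0.01 when the arrays were also scaled to each other. With only these 2 groups in the fit, or with array weights, it passed (adjusted p = 0.036 and 0.025). The probe was bright, with a red intensity between 7970 and 14148.5 on the N1N2 arrays and between 9457 and 12346 on the control arrays.

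**Figure D1:**
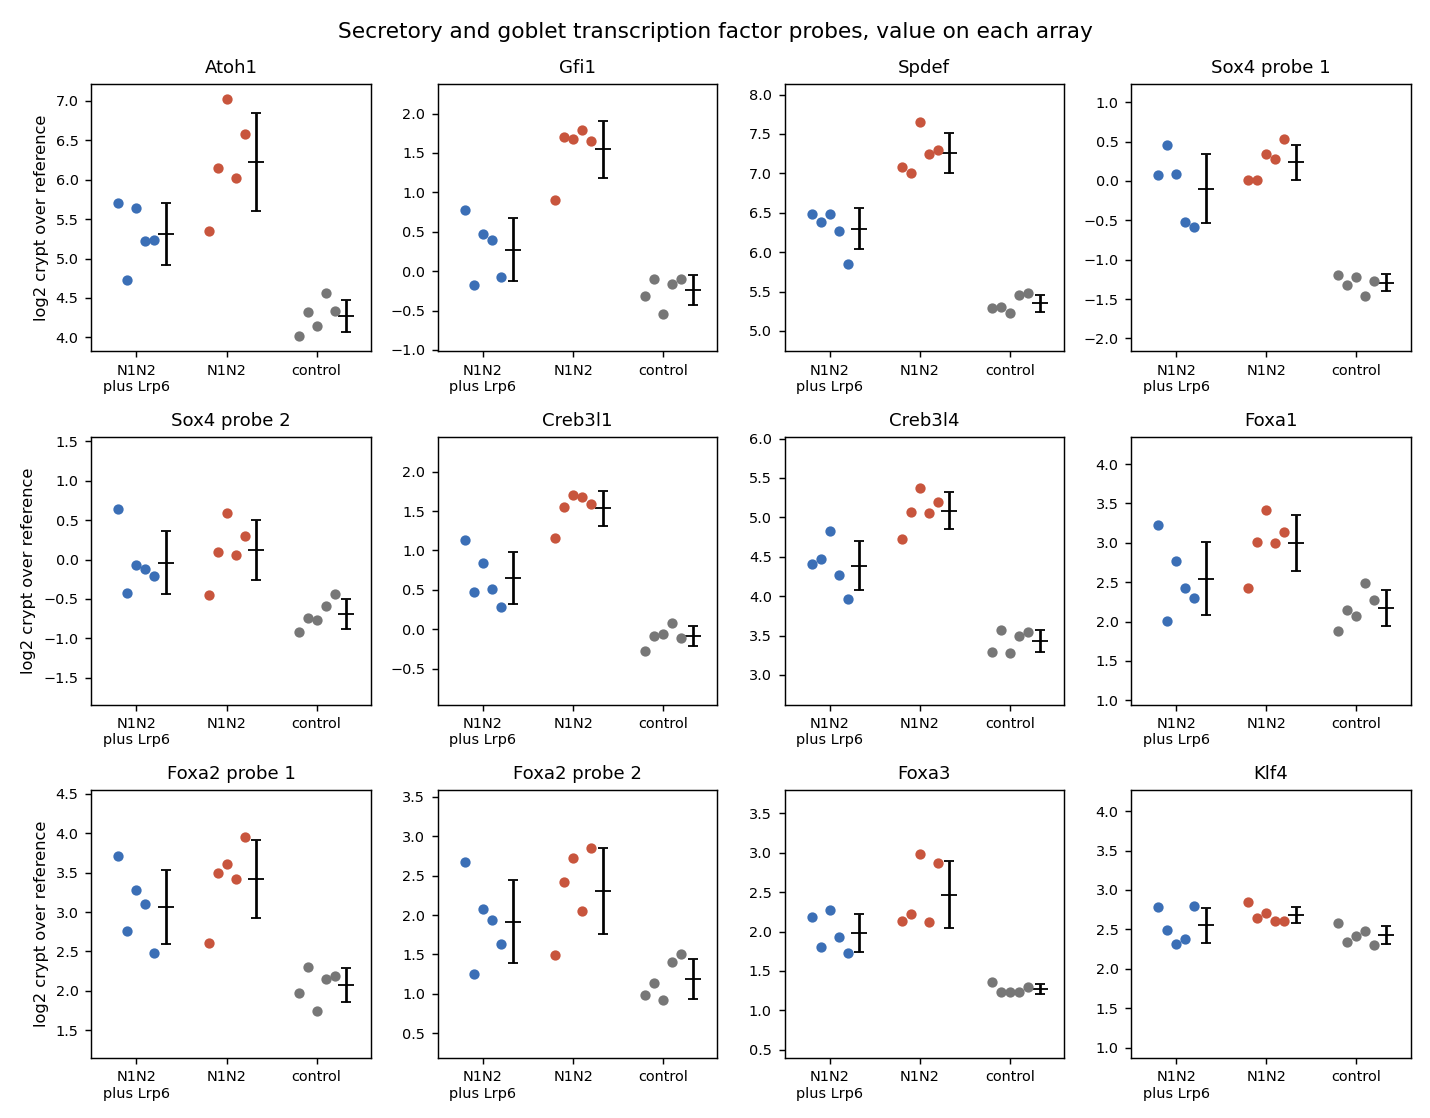
Log2 ratio of crypt over reference for each of the 12 probes, 1 point per array, in the N1N2 plus Lrp6, N1N2 and control groups (5 arrays each). The bar beside each group is its mean with the SD, and every panel spans the same number of log2 units. The N1N2 points lie wholly above the control points for 9 probes, and the smallest gap is that of Klf4.

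Because 1 slide carried both groups, the comparison could be repeated on it. On slide 2, with 2 N1N2 and 2 control arrays, all 12 probes were higher in N1N2 crypts, by 0.33 to 1.58. Their median was 1.11, against 0.0044 over all probes tested. In a limma fit of these 4 arrays alone no member passed the test, and 3 of the 28488 probes were called. With slide as a fixed block in the fit, the difference rests on those 4 arrays, and 4 of the 12 probes passed the test. They were those of Spdef (log2 change 1.58, adjusted p = 0.00015), Creb3l4 (1.38, adjusted p = 0.0089), Creb3l1 (1.37, adjusted p = 0.017) and the brighter Sox4 probe (1.38, adjusted p = 0.031). Atoh1 (1.31, adjusted p = 0.15), Gfi1 (1.43, adjusted p = 0.078), Foxa3 (0.91, adjusted p = 0.13) and the brighter Foxa2 probe (0.89, adjusted p = 0.31) did not pass there. The dimmer Sox4 and Foxa2 probes and Foxa1, at 0.34, 0.50 and 0.33, did not pass either (adjusted p between 0.62 and 0.67). In that fit 117 of all probes were called.

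RefSeq promoter windows (assembly GRCm38.p6) were listed for 9 of the 10 genes, all except Creb3l1. In the 250 bases before each listed start, 3 short motifs were searched on both strands. CAGCTG and CAGATG (reverse complement CATCTG) are E-boxes, the kind of site that factors of the Atoh1 class bind, and TGGGAA (reverse complement TTCCCA) is the core of the site of Rbpj, the DNA-binding partner of Notch. They do not overlap in these windows. The first listed window of Atoh1 held none of the 3, nor did those of Gfi1, Creb3l4, Foxa1, Foxa2 and Foxa3. TGGGAA stood 22 bases before the Spdef start and 100 bases before the Sox4 start. CAGCTG stood 211 bases before the Sox4 start and 247 bases before the Klf4 start, and CAGATG 105 bases before the second listed start of Creb3l4. Of all 32851 windows, 13.0% held CAGCTG, 14.4% CAGATG and 21.6% TGGGAA, so a match in 1 window is common. A match describes the letters and shows no binding, and an empty window leaves out distant enhancers. The 4 windows below are those of the factor at the head of the branch (Atoh1), of a gene whose rise passed with slide as a fixed block too (Spdef), of the gene with 2 motifs (Sox4) and of the gene that did not pass the test (Klf4). They are printed 5′ to 3′ along the gene's strand, ending at the base before the start, with the motifs in capitals. They lie at chr6:64728875-64729124 on the plus strand (Atoh1), and on the minus strand at chr17:27728952-27729201 (Spdef), chr13:28953700-28953949 (Sox4) and chr4:55532476-55532725 (Klf4).
Atoh1: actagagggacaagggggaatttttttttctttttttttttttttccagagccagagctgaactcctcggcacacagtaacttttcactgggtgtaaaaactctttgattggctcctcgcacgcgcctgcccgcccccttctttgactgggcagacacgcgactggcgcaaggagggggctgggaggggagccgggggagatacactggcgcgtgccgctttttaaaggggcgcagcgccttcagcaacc
Spdef: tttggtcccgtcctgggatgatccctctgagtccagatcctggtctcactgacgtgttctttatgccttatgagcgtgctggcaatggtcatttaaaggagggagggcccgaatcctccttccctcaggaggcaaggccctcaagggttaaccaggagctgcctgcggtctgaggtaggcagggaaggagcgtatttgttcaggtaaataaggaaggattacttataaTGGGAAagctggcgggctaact
Sox4: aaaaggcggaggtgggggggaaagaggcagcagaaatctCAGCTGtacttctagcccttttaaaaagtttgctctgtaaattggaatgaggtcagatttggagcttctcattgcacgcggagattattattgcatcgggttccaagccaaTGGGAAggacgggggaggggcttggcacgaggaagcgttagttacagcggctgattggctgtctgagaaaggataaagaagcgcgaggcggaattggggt
Klf4: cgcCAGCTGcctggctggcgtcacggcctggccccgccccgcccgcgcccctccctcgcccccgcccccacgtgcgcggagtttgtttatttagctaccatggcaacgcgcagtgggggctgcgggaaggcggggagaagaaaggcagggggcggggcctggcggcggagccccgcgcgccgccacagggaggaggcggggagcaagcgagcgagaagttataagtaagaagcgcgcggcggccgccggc

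With the Lrp6 antibody added to the Notch antibodies, 5 of the 10 genes were expressed at lower levels. Atoh1, Gfi1, Spdef, Creb3l1 and Creb3l4 fell in the N1N2 plus Lrp6 group against the N1N2 group (5 of 12 probes, limma, adjusted p under 0.05), where 6.87% of all probes were called lower. None of the 12 rose, also at an unadjusted p under 0.05, while 9.67% of all probes were called higher. Sox4, the 3 Foxa genes and Klf4 did not pass the test, by either probe for Sox4 and Foxa2. All 12 differences were below 0, although those of Klf4, Foxa3 and the brighter Foxa2 probe turned sign under other processing. Their median was -0.47 and their range -1.27 to -0.13, and the median over all probes was 0.0039. This comparison and the one before share the N1N2 arrays, so an N1N2 array that is high or low moves both. All N1N2 plus Lrp6 arrays lay on slides 5 and 6, which held no other group. Slide and treatment thus cannot be told apart in this comparison.

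Atoh1 had log2 ratios of 5.70, 4.73, 5.65, 5.22 and 5.23 on the N1N2 plus Lrp6 arrays, against the 5.35 to 7.02 of the N1N2 arrays. Replicates 1 and 3 of the combined treatment lay above the lowest N1N2 array, so the groups overlapped. The change was -0.92 ± 0.25 (SE, adjusted p = 0.021), or 1.89-fold lower. Gfi1 had 0.77, -0.18, 0.47, 0.39 and -0.08 on the N1N2 plus Lrp6 arrays, against 0.91 to 1.79 on the N1N2 arrays. Its highest value was under the lowest N1N2 value, and the change was -1.27 ± 0.19 (SE, adjusted p = 0.00082), or 2.41-fold lower, the largest of the 12 changes. Spdef had 6.49, 6.39, 6.49, 6.27 and 5.86 on the N1N2 plus Lrp6 arrays, against 7.00 to 7.65 on the N1N2 arrays, again with no overlap. The change was -0.96 ± 0.13 (SE, adjusted p = 0.00055). Such separation, shown by 3 of the 12 probes, was seen for 3.75% of all probes.

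Creb3l1 had 1.13, 0.48, 0.84, 0.51 and 0.29 on the N1N2 plus Lrp6 arrays, against 1.16 to 1.70 on the N1N2 arrays. The highest array of the combined treatment came close to the lowest N1N2 array without passing it, and the fall was 0.89 (SE 0.14, adjusted p = 0.0012). Creb3l4 had 4.41, 4.47, 4.82, 4.27 and 3.97 on the N1N2 plus Lrp6 arrays, against 4.73 to 5.37 on the N1N2 arrays. Replicate 3 of the combined treatment lay inside the N1N2 range, and the fall was 0.70 (SE 0.14, adjusted p = 0.0047). For Spdef and Creb3l1 all 3 groups were apart, with every N1N2 plus Lrp6 array above every control array and below every N1N2 array. The share of all probes with both separations was not counted. Taken singly, 3.75% of all probes lay wholly below the N1N2 arrays and 1.53% wholly above the control arrays.

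For the members that did not pass, the intervals show what these arrays allow. The Sox4 probes differed by -0.33 (95% interval -0.69 to 0.03, adjusted p = 0.21) and -0.16 (-0.57 to 0.25, adjusted p = 0.67). The Foxa1 difference was -0.45 (-0.90 to -0.01, adjusted p = 0.16), and the Foxa2 probes differed by -0.35 (-0.85 to 0.15, adjusted p = 0.36) and -0.39 (-0.95 to 0.17, adjusted p = 0.37). Whether these changes differ from those of the genes that fell was not tested. Foxa3 missed the threshold narrowly, at -0.48 (-0.83 to -0.13, adjusted p = 0.058), and its sign turned to 0.21 with the scanner software's own ratios, for a probe whose green signal was well above background on 0 of 5 N1N2 plus Lrp6 arrays, 1 of 5 N1N2 arrays and 2 of 5 control arrays. It passed in limma under 4 of its 26 alternatives (lowest adjusted p = 0.029). The brighter Sox4 probe and Foxa1 each passed under 2 of 27 (lowest adjusted p = 0.037 and 0.029). Klf4 differed by -0.13 (-0.34 to 0.08, adjusted p = 0.43), and by 0.09 with median centring in place of loess and 0.15 with scaling between arrays.

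**Figure D2:**
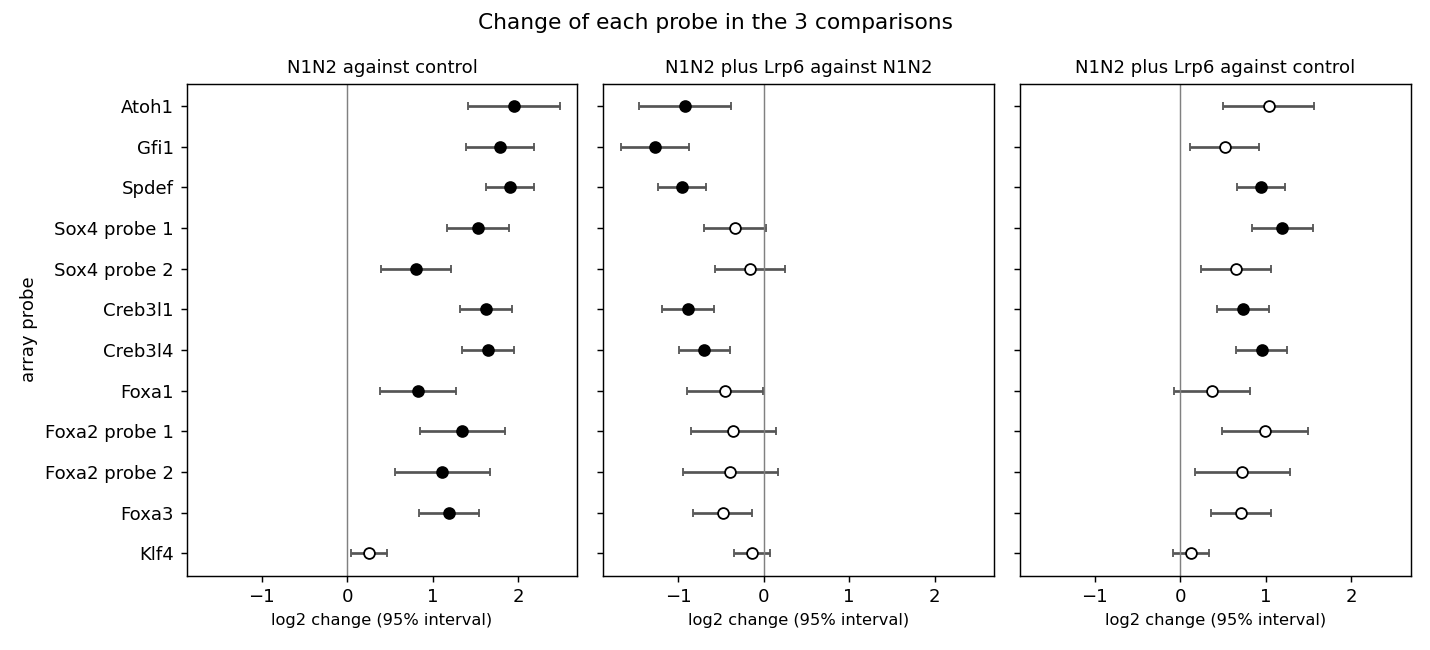
Log2 change of each probe with its 95% interval in N1N2 against control, N1N2 plus Lrp6 against N1N2, and N1N2 plus Lrp6 against control (5 arrays per group). Filled points passed the test at an adjusted p under 0.05, which 11, 5 and 4 of the 12 probes did. Klf4 lies nearest to 0 in each of the 3 panels, and its sign turns with scaling between arrays in the first 2.

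The calls of this comparison depended on the normalization. When the arrays were scaled to a common spread after loess, the differences of Spdef (-0.23, adjusted p = 0.64), Atoh1 (-0.29, adjusted p = 0.65) and Creb3l4 (-0.19, adjusted p = 0.60) no longer passed, and 2 of the 12 probes were called. The count was also 2 with median centring in place of loess, where Atoh1 (adjusted p = 0.081), Creb3l1 (adjusted p = 0.058) and Creb3l4 (adjusted p = 0.054) missed the threshold. It was 3 with the scanner software's own ratios, where the Atoh1 difference was -0.44 (adjusted p = 0.33). With outlier spots kept it was 2 again, and Spdef was among those that missed (adjusted p = 0.09). Atoh1 also missed with only these 2 groups in the fit (adjusted p = 0.058). Gfi1 passed under each of the 27 alternatives run for this comparison, with changes from -1.43 to -1.07. The N1N2 plus Lrp6 arrays also had the lower share of spots above background given earlier. On them 6 of the 15 stromal and muscle markers tested fell against the N1N2 arrays, where 6.87% of all probes did. The part of either in these differences was not tested.

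**Figure D3:**
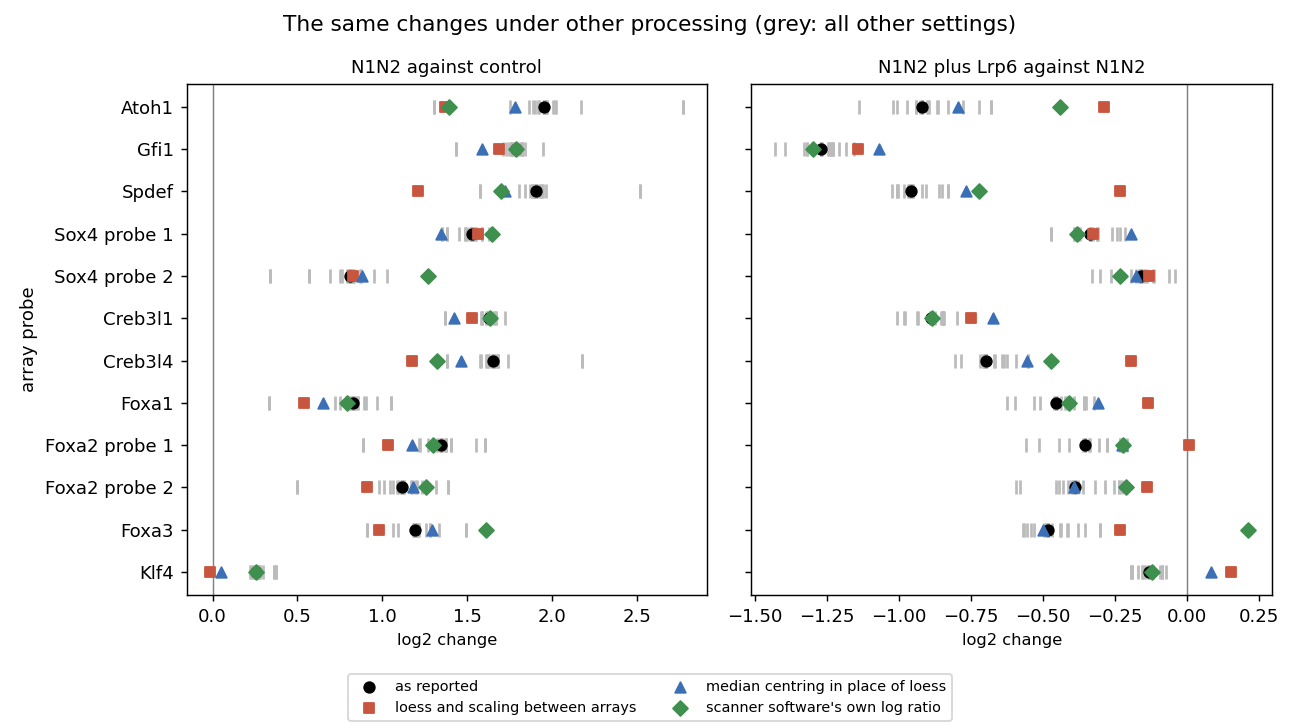
Log2 change of each probe as reported and under other processing, in N1N2 against control and in N1N2 plus Lrp6 against N1N2. Scaling between arrays brings Spdef, Atoh1 and Creb3l4 near to 0 in the second panel (-0.23, -0.29 and -0.19), the scanner software's ratio puts Foxa3 above 0 there (0.21), and Klf4 lies above 0 with scaling and with median centring.

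The combined treatment against control was not named in the study's design, and it asks what expression remains above that of control crypts. All 12 differences were above 0, with a median of 0.73 and a range of 0.13 to 1.19, against a median of 0.0099 over all probes. Spdef, Creb3l1, Creb3l4 and the brighter Sox4 probe were higher at an adjusted p under 0.05 (4 of 12 probes, limma), where 0.197% of all probes were called higher. None was lower, also at an unadjusted p under 0.05, and 0.161% of all probes were. The values of 8 probes did not overlap between these groups, where 1.53% of all probes lay wholly higher and 1.09% wholly lower. On the same arrays 3 of the 15 stromal and muscle markers were lower, where 0.161% of all probes were. At an unadjusted p under 0.05, 11 of the 15 were lower, where 12.8% of all probes passed in either direction. The median log2 change of the 15 was -0.69, and the part of this shift in the members' differences was not tested. Slide and treatment cannot be told apart in this comparison either.

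The brighter Sox4 probe had 0.07, 0.45, 0.08, -0.52 and -0.58 on the N1N2 plus Lrp6 arrays, against -1.46 to -1.19 on the control arrays, and it was 1.19 higher (SE 0.17, adjusted p = 0.0055). The lowest of the treated arrays was still well above the highest control. Creb3l4 was 0.95 higher (SE 0.14, adjusted p = 0.0073) and Spdef 0.95 higher (SE 0.13, adjusted p = 0.0055). Creb3l1 was 0.74 higher (SE 0.14, adjusted p = 0.04), a call that was lost when any 1 control array, or any of replicates 1 to 4 of the N1N2 plus Lrp6 group, was left out (adjusted p between 0.053 and 0.11). With scaling between arrays, Spdef (adjusted p = 0.14), Creb3l1 (0.06) and Creb3l4 (0.064) did not pass, and only the brighter Sox4 probe did.

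Among the members that missed the threshold, Atoh1 differed by 1.03 ± 0.25 (SE, 95% interval 0.50 to 1.57, adjusted p = 0.093), although every N1N2 plus Lrp6 value lay above every control value. Gfi1 differed by 0.52 (0.12 to 0.92, adjusted p = 0.27), and replicate 2 of the N1N2 plus Lrp6 group, at -0.18, lay within the control range. The brighter Foxa2 probe differed by 0.99 (adjusted p = 0.083) and Foxa3 by 0.71 (adjusted p = 0.078), and neither had overlapping groups. Foxa1 (0.37, adjusted p = 0.48) and Klf4 (0.13, adjusted p = 0.62) had overlapping groups. Without replicate 5 of the N1N2 plus Lrp6 group, alone on its slide and the lowest of its group for 6 of the 12 probes, the brighter Foxa2 probe (adjusted p = 0.031) and Foxa3 (adjusted p = 0.042) passed as well.

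Within a group, some arrays were high or low for many of the probes at once. N1N2 replicate 1 was the lowest of its group for 8 of the 12 probes, and N1N2 replicate 3 was the highest for 7. In the N1N2 plus Lrp6 group, replicate 1 was the highest for 7 probes, replicate 5 the lowest for 6 and replicate 2 the lowest for 5. The control arrays lay closer together: the range over the 5 arrays of a group was 0.14 to 0.61 over the 12 probes in the control group, against 0.55 to 1.42 in the N1N2 plus Lrp6 group for all probes except Klf4 (0.48). In the N1N2 group it was 0.53 to 1.67, again with Klf4 apart at 0.24.

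The partners of these factors in the Notch circuit and in early secretory cells were taken from a list of 20 genes. In N1N2 against control 9 of the 20 rose and 1 fell, where 6.2% and 5.23% of all probes did, and their median log2 change was 0.32. The gene that fell was Hes1, the Notch target that represses Atoh1 (-0.87 ± 0.13 SE, adjusted p = 0.00068). Its N1N2 arrays lay between -1.08 and -0.84, against -0.31 to 0.33 on the control arrays. Dll1 and Dll4, the ligands on secretory progenitors, rose by 1.81 ± 0.11 (SE, adjusted p = 3.1e-07) and 1.38 ± 0.17 (SE, adjusted p = 0.00014). Cbfa2t3, a co-repressor, rose by 2.52 ± 0.19 (SE, adjusted p = 1.7e-06) and Neurog3, which specifies enteroendocrine cells, by 3.83 ± 0.27 (SE, adjusted p = 8.7e-07). With Lrp6 blocked as well, 1 of the 20 rose and 6 fell against N1N2, where 9.67% and 6.87% of all probes did. Hes1 was the one that rose (0.54 ± 0.13 SE, adjusted p = 0.011), while Dll1 (-1.06), Dll4 (-0.95) and Cbfa2t3 (-1.43) fell, with adjusted p of at most 0.0026. Neurog3 differed by -0.54 and did not pass (adjusted p = 0.20). Against control, 5 of the 20 were higher with the combined treatment, where 0.197% of all probes were, and none was lower (1 at an unadjusted p under 0.05), Neurog3 among them by 3.29 (adjusted p = 3.1e-05).

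The goblet programme was followed through 20 goblet cell genes, several of which earlier results of these arrays had already shown to rise. In N1N2 against control 12 rose, where 6.2% of all probes did, and none fell, also at an unadjusted p under 0.05. Their median log2 change was 0.75. Rap1gap (1.72), Sytl2, a protein of granule docking (1.61), Pdia5, a protein disulphide isomerase (1.51), and Galnt12, which starts the O-linked glycans of mucins (1.46), had the smallest adjusted p, from 2.8e-06 to 2.6e-05. Muc2, the main goblet mucin, differed by 0.41 and did not pass (adjusted p = 0.28). Against N1N2, 9 of the 20 fell with the combined treatment, where 6.87% of all probes did, and none rose, also at an unadjusted p under 0.05, with a median of -0.46. Sytl2 fell by 1.25, Rap1gap by 0.99, Pdia5 by 0.95 and Galnt12 by 0.94 on the log2 scale, with adjusted p from 0.00025 to 0.0013. Against control only Rap1gap of the 20 was higher (0.73, adjusted p = 0.041), and none was lower, also at an unadjusted p under 0.05.

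Relatives of the members in the same gene families were also followed. Of 22 such genes 20 were tested, and 2 were at background on every array. In N1N2 against control, Sox9, a factor of Paneth and stem cells (0.94 ± 0.17 SE, adjusted p = 0.0031), and Ehf, an ETS factor like Spdef (0.48 ± 0.14 SE, adjusted p = 0.04), rose, and none fell, also at an unadjusted p under 0.05. These 2 of 20 stand beside 6.2% of all probes called higher, so the share is near that of all probes. The median log2 change of the 20 was 0.07. Creb3l3, the liver and gut relative of Creb3l1 and Creb3l4, differed by 0.47 with overlapping groups (adjusted p = 0.11), and Foxp1 by 0.31 (adjusted p = 0.26). With the Lrp6 antibody added, 1 of the 20 rose, where 9.67% of all probes did, the Krüppel-like factor Klf5 (0.41, adjusted p = 0.036). None fell, where 6.87% of all probes did. At an unadjusted p under 0.05, 2 were lower, Creb3l3 (-0.49, adjusted p = 0.083) and Klf3 (-0.30, adjusted p = 0.10). Klf5 and Klf3 were named here after their values were seen. In the combined treatment against control none of the 20 passed the test in limma, and at an unadjusted p under 0.05, 2 were higher and 0 lower.

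The genes whose pattern over the 15 arrays was most like that of Atoh1 were found by centring each of 15813 named genes on its own mean and taking the root mean square difference from Atoh1. The nearest were Wnt3 (0.241 log2 units), Pax4 (0.244), Rfx6 (0.289), Kit (0.301) and Rap1gap (0.305), against a median of 0.914 over all genes. A gene with the same value on all 15 arrays would lie at 0.891. Pax4 and Rfx6 are enteroendocrine factors, Wnt3 is a ligand made by Paneth cells, and Kit is a receptor tyrosine kinase. Of the other members, Creb3l1 was 6th in this order, Spdef 9th, Creb3l4 11th and Gfi1 16th. Foxa2 was 23rd, Foxa3 28th, Foxa1 81st and Sox4 89th, each by its brighter probe. Klf4 was 1925th, at 0.820, which is near the 0.891 of an unchanging gene. All 15 arrays enter each difference, the group means included, so this order is a description and carries no test.

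**Figure D4:**
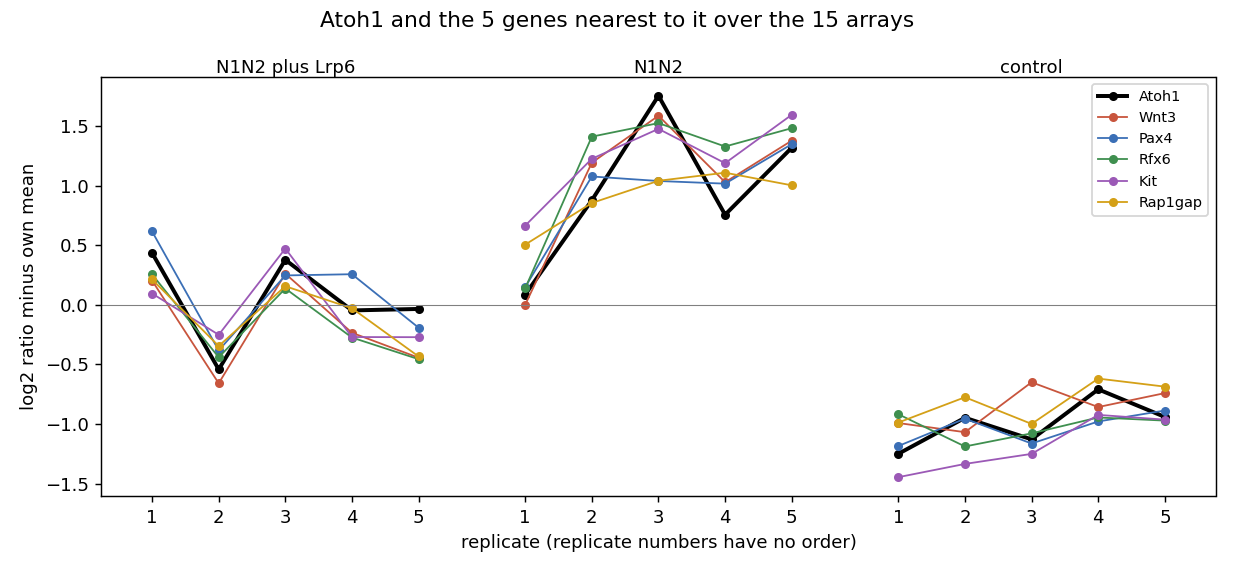
Log2 ratio of crypt over reference, each gene centred on its own mean, on each of the 15 arrays for Atoh1 (black) and the 5 genes nearest to it. Lines join the arrays of a group for reading only, and replicate numbers have no order. All 6 genes have their highest array in the N1N2 group and their lowest in the control group, and within the N1N2 group replicate 1 is the lowest array for each.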

How the data were processed

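Per the labels' protocols, crypts were released from intestine with a chelating buffer, strained and pelleted, and their total RNA was amplified, labelled with Cy5 and hybridised against a Cy3-labelled universal mouse reference, with no dye swap. The labels' protocols pool crypt fractions within a preparation, and nothing says more about how the replicates were kept apart. Per the file headers, the scanner software was Feature Extraction 11.0.1.1 and the probe design rests on mm9. For each array the authors deposited the median intensity of every spot and of its surroundings in red and green, the log10 ratio that the software derives from them, and quality flags. They also deposited a table of log2 values, for which the submitters' processing notes name R 3.0.0 and limma 3.6.7 only. Its columns correlated with the values computed here at r of at least 0.99998 on every array, with slopes from 0.997 to 1.001 and medians from 0.0144 to 0.0286, so its scale is log2 and its direction crypt over reference. Whether its columns were centred further is unknown.

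Calculations used R 4.3.3, limma 3.58.1 and data.table (version 1.17.8). Spots flagged as non-uniform or as feature population outliers (306 to 642 per array, control spots not counted) were left out before normexp background correction (offset 50) of the median intensities. Each array held 44397 spots, control spots included. The plan named no column, and mean intensities were not in the files used here. Within-array loess (span 0.3) followed, in which control spots had weight 0 before removal. Spots of a probe were averaged. Tested probes had a red signal well above background on 4 or more of the 5 arrays of some group. The 3 groups were compared in 1 limma fit (lmFit, eBayes) of the 15 arrays, per probe, two-sided, with Benjamini-Hochberg adjustment over all 28488 probes and a threshold of 0.05. The method was tested on simulated data. Of 39429 probes, 26581 were named by lookup of RefSeq accessions or Ensembl identifiers (GRCm38.p6, names only) and 12848 were not.

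The members and lists were chosen with earlier results of these data known. The lists are partners in the secretory circuit, goblet programme genes, family relatives, and markers of Paneth, enteroendocrine, tuft, enterocyte, stem, immune, stromal and muscle, and epithelial cells, each gene by its brightest probe. Named genes were all 10 members by every probe, from each of the first 3 lists the 4 genes with the smallest adjusted p in N1N2 against control and up to 2 past the threshold in the other direction, and the 5 genes nearest to Atoh1. Alternatives covered background correction, flagged spots, normalization, filter, probe choice, slide, replicate number, array weights and leaving out each array.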

Additional observations from a re-analysis of the deposited data

Results flagged for a closer look

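Among 36 sets of 5 arrays (12 probes in 3 groups), 2 held an array far from the other 4, measured as its gap to the nearest array over the whole range of the group. Chance marks about 1 in 20 such sets. Gfi1 was 0.91 on N1N2 replicate 1, the lowest of its group, with a gap of 0.847 of the range. Creb3l1 was 1.16 on the same array, again the lowest, with a gap of 0.721 of the range. Both genes kept their calls in N1N2 against control and in N1N2 plus Lrp6 against N1N2 when that array was left out.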

How the results depend on the processing

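In N1N2 against control, 11 probes were called higher as reported. The count was 4 with slide as a fixed block and 0 on the shared slide alone, where only 4 arrays enter the fit. Leaving out 1 array at a time gave 10 to 11, and 10 came without control replicate 1, where Foxa1 had an adjusted p of 0.051. Normalization mattered as well. Foxa1 (adjusted p = 0.24) and the dimmer Foxa2 probe (0.076) missed with scaling between arrays, and Foxa1 with median centring (0.16). The dimmer Sox4 probe missed with outlier spots kept (adjusted p = 0.096). Between N1N2 plus Lrp6 and N1N2, 5 probes were called lower as reported, 3 with the scanner software's ratio, and 2 with outlier spots kept in the normexp fit, kept throughout, with median centring or with scaling between arrays. Leaving out 1 array gave 5 to 6. In N1N2 plus Lrp6 against control, 4 probes were called higher as reported, 2 with median centring, 1 with scaling, 10 with slide as a random block, 7 with array weights, and 3 to 6 without 1 array. The slide correlation of that random block was -0.18, so it gives no stricter test. No alternative called a member in the other direction. Signs turned for Foxa3 in N1N2 plus Lrp6 against N1N2 with the scanner software's ratio (0.21), for Klf4 there with median centring (0.086) and scaling (0.15) and in N1N2 against control with scaling (-0.014), and for the brighter Foxa2 probe in N1N2 plus Lrp6 against N1N2 with scaling (0.0070). The cause was not tested. Of the members' changes over all alternatives, 317 of 344, 293 of 320 and 289 of 320 kept direction and side of the threshold in the 3 comparisons in that order. Aquantile leaves ratios as they are, so it gave the same values by construction. Leaving out spots with an outlying local background as well, chosen after seeing the data, gave 11 probes higher in N1N2 against control.

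Replicate numbers are shared by the groups, and the labels give no pairing. Not every pair correlated above 0.1, so they were not taken as pairs. Correlations of same-numbered deviations ran from -0.0076 to 0.617 for N1N2 with control (4 of 5 over 0.1, and 2 of 5 best with their own number), from -0.427 to 0.0839 for N1N2 plus Lrp6 with N1N2, and from -0.261 to -0.0012 for N1N2 plus Lrp6 with control. With the replicate block, 11 probes were higher, 5 lower and 3 higher in the 3 comparisons. Creb3l1 in N1N2 plus Lrp6 against control was the member that did not pass there (log2 change 0.74, adjusted p = 0.11).

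Over all probes, 3257 were called in N1N2 against control. The count was 2151 with the scanner software's ratio, 1457 with median centring, 4970 with only the 2 groups in the fit, 117 with the slide as a fixed block, 3 on the shared slide alone, 7547 with array weights, and 1747 (without control replicate 2) to 3256 without 1 array. Between N1N2 plus Lrp6 and N1N2 it was 4713, against 2695 and 2702 with outlier spots kept in the normexp fit or throughout, 8327 with the random block and 2937 (without N1N2 replicate 4) to 5624 without 1 array. In N1N2 plus Lrp6 against control it was 102, against 181 with the scanner's ratio, 53 and 51 with outlier spots kept, 154 with offset 16, 34 with median centring, 61 with scaling, 54 with only the 2 groups, 3270 with the random block, 32 with the replicate block, 485 with array weights, 27 without control replicate 2 or 5 and 422 without N1N2 plus Lrp6 replicate 5. The share of calls that were higher was 54.3%, 58.5% and 54.9% as reported. In the first comparison it moved to 68.1% with outlier spots kept in the normexp fit and 73.5% with slide as a fixed block, and it was 45.6% with median centring. It moved to 77.2% with median centring in the second, and in the third to 38.1% with the scanner's ratio, 83% with outlier spots kept and 67.2% with scaling. The low green signal of Atoh1, Foxa3 and the dimmer Foxa2 probe limits how far their ratios can be read as levels.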

Other observations

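Markers of other cell types were counted on the same arrays, 1 probe per gene, by limma at an adjusted p under 0.05. Over all probes, 6.2% rose and 5.23% fell in N1N2 against control, 9.67% rose and 6.87% fell in N1N2 plus Lrp6 against N1N2, and 0.197% were higher and 0.161% lower in the combined treatment against control. Of 21 enteroendocrine genes, 7 rose in N1N2 against control and none fell, also at an unadjusted p under 0.05, with Neurog3 and Insm1 also among the partners described above. Pax4 rose by 1.96, Rfx6 by 2.20 and Nkx2-2 by 1.23. The hormone genes Cck, Gcg, Gip, Sct, Sst and Tac1 did not pass. Their changes ran from -0.19 (Cck) to 0.45 (Tac1), with adjusted p of at least 0.22. Chga (0.26) and Chgb (0.02) did not pass either. With the Lrp6 antibody added, 4 of the 21 fell and 1 rose, which was Sst (0.37, adjusted p = 0.036). Against control, 3 were higher with the combined treatment and none was lower, also at an unadjusted p under 0.05. Of 13 stem cell genes tested, 5 fell in N1N2 against control, among them Ascl2 by 1.45 on the log2 scale, and 1 rose, which was Sox9. In N1N2 plus Lrp6 against N1N2, 4 rose and none fell (1 at an unadjusted p under 0.05), and in the combined treatment against control 1 was lower, Lgr5. These genes were picked for naming after their values were seen.

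None of the 10 Paneth cell genes passed in any of the 3 comparisons. At an unadjusted p under 0.05, 2 were higher in N1N2 against control and none in the other comparisons. Of 9 tuft cell genes 1 rose, of 15 enterocyte genes 1 fell and of 10 epithelial genes 1 rose in N1N2 against control. Over all probes 6.2% rose and 5.23% fell there, so single calls in such lists are near the shares of all probes. In N1N2 plus Lrp6 against N1N2, 1 epithelial gene fell and no tuft or enterocyte gene passed, with 2 and 1 past an unadjusted p of 0.05, and in the combined treatment against control no gene of these 3 lists passed, with 1, 2 and 1 past it. Of 13 immune genes, 2 fell in N1N2 against control, with a median log2 change of -0.44. At an unadjusted p under 0.05, 7 were lower and 1 higher there, where 26.4% of all probes passed in either direction. None passed in the other comparisons, where 1 and 4 were past an unadjusted p of 0.05, beside 29.1% and 12.8% of all probes. Of 15 stromal and muscle genes, 2 fell in N1N2 against control, 6 in N1N2 plus Lrp6 against N1N2 and 3 in the combined treatment against control. At an unadjusted p under 0.05, 5, 8 and 11 were lower, where 26.4%, 29.1% and 12.8% of all probes passed in either direction. None rose, and 1 was higher at an unadjusted p under 0.05, in N1N2 against control.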
